A study of Mus musculus with 68 samples.

Results

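Papillomas were compared between mice that gained many and mice that gained few or lost some between 2 counts, in a single class of tumor susceptibility. The class held the mice with 2 to 7 papillomas at 20 weeks, called intermediate here, and the gain was the number of papillomas at 24 weeks minus the number at 20 weeks. Of the 37 mice of the series 19 were intermediate, with 35 of the 68 papilloma arrays. A gain of 2 or more was recorded in 8 of them (16 arrays) and a gain below 2, losses included, in 11 (19 arrays).

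All animals were FVBBX mice, in which (SPRET/Ei x FVB/N) hybrids were crossed back to FVB/N, so that each mouse carries its own mixture of SPRET/Ei segments on an FVB/N background. They were 8 to 12 weeks old when shaved back skin received a single application of DMBA, followed after 1 week by TPA at 2 applications a week for 20 weeks. Both gain groups, and the other mice of the series, had the same treatment, and no untreated mice were among them. Other mice used below are the 12 susceptible mice with more than 7 papillomas at 20 weeks (4 with a gain of 2 or more and 8 with a gain below 2) and the 6 resistant mice with fewer than 2.

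DMBA is a mutagen that initiates skin tumors, most often through an activating mutation of Hras, and TPA is a promoter that activates protein kinase C and drives initiated keratinocytes to grow out as papillomas. Papillomas are benign outgrowths of epidermis over a core of stroma. Some persist without TPA, some shrink once it stops, and a few progress to carcinoma. The intermediate mice were killed 201 to 334 days after the start of treatment, with no day given for mouse 15. In the susceptible mice with a day given, the range was 179 to 388 days. The labels state neither the day on which each profiled papilloma was removed nor the day from which the 24 weeks of the second count run.

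The gain ranged from -2 to 11 papillomas. In the group with a gain of 2 or more, 1 mouse gained 2, 3 mice gained 3, and the other gains were 5, 7, 11 and 11. In the other group 4 mice lost papillomas, 2 were unchanged and 5 gained 1, so that the group's lowest, median and highest gains were -2, 0 and 1. At 20 weeks the first group had 2 to 7 papillomas (median 4.5) and the second 2 to 6 (median 4). At 24 weeks the values were 4 to 18 (median 9.5) and 2 to 6 (median 4). The limit between the groups therefore ran between 5 mice with a gain of 1 and 1 mouse with a gain of 2.

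**Figure D1:**
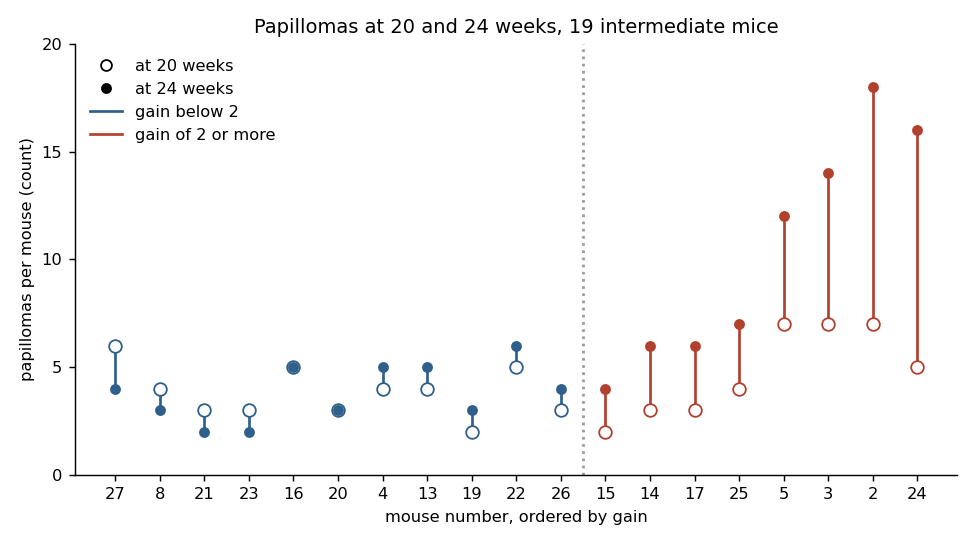
Papillomas per mouse at 20 weeks (open circles) and 24 weeks (filled circles) in the 19 intermediate mice, ordered by gain; blue marks the 11 mice with a gain below 2 and red the 8 mice with a gain of 2 or more. Gains run from -2 on the left to 11 on the right, and the counts at 20 weeks overlap between the groups.

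The groups were compared for the other labels of the mice, in a family of 7 tests. The first papilloma appeared at 12.5 ± 3.7 weeks (SD, n = 8) in mice with a gain of 2 or more and at 14.0 ± 2.5 weeks (SD, n = 10) in the others (exact permutation test, two-sided, p = 0.387, Benjamini-Hochberg adjusted p = 0.91). The time to sacrifice was 286 ± 25 days (SD, n = 7) and 271 ± 48 days (SD, n = 11) by the same exact test (p = 0.439, adjusted p = 0.91). Males made up 3 of 8 and 6 of 11 mice, agouti coats 3 of 8 and 5 of 11, and a carcinoma was also profiled from 6 of 8 and 8 of 11 (Fisher's exact tests, adjusted p of 0.91, 1 and 1). All 3 mice with a single array were in the group with a gain below 2 (Fisher's exact test, adjusted p = 0.91). None of these differences passed the threshold.

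The array values themselves were even. Array medians of the deposited log2 values lay between 5.18 and 5.28, so a probeset near 5.2 was at the middle of its array. The 3'/5' log2 ratio of Actb, a measure of RNA integrity, ran from 0.55 to 1.43 in mice with a gain of 2 or more and from 0.55 to 0.90 in the others, with mouse 2 at the top. Among susceptible mice it was highest in mouse 30 (gain of 2 or more, 1.29) and mouse 31 (gain below 2, 1.28). Levels of Xist, of Eif2s3y or of both went against the recorded sex in 6 arrays of 4 intermediate mice, 2 mice in each gain group. These were both arrays of mice 15 and 24, 1 of the 2 arrays of mouse 13 and the single array of mouse 21. The recorded labels were kept. The 19 mice came from 6 start cohorts, and 3 of these (B, F and G) held both groups. Keratinocyte markers were high in all 19 mice, with Krt14 between 14.4 and 14.8 and Trp63, the regulator of the epidermal lineage, between 9.88 and 11.1.

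No probeset passed the threshold between the gain groups. Of 21581 tested probesets 0 had an adjusted p under 0.05 in limma (0%), and the smallest adjusted p was 0.521. At an unadjusted p under 0.05 there were 891 probesets, 4.13% of those tested, 380 of them (1.76%) higher and 511 (2.37%) lower in mice with a gain of 2 or more. The median difference over the tested probesets was -0.01 on the log2 scale. The genes described next are the 12 probesets in each direction with the smallest unadjusted p, 24 probesets of 23 genes. Their place at the head of the order is no evidence that they differ.

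Ehd1, which codes for an ATPase of endocytic recycling, had the smallest p. Its probeset 1416012_at had a lowest, median and highest log2 value of 6.23, 6.38 and 6.72 in the 8 mice with a gain of 2 or more. In the 11 mice with a gain below 2 the values were 5.94, 6.07 and 6.16. All 8 mice of the first group lay above all 11 of the second, the single probeset of the 21581 (0.00463%) in which the groups did not overlap. The difference was 0.32 ± 0.06 (SE), with an adjusted p of 0.521 in limma and an exact permutation p of 1.32e-05, the smallest that 75582 splits of the mice can give. The other 3 tested Ehd1 probesets, which had higher levels, differed by -0.04, -0.11 and -0.20, so the difference held for 1 probeset and not for the gene.

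Abcb10, a transporter of the inner mitochondrial membrane, came next (probeset 1416403_at). Values ran from 7.56 to 8.25 (median 7.78) in mice with a gain of 2 or more and from 7.15 to 7.59 (median 7.37) in the others. Of the 8 mice with the larger gain 7 lay above all the others. The difference was 0.42 ± 0.09 (SE), with an adjusted p of 0.521, and its 2 other tested probesets differed by -0.23 and 0.04. Eif2b5, the catalytic subunit of the exchange factor for initiation factor eIF2, ran from 9.33 to 9.96 (median 9.85) against 9.07 to 9.69 (median 9.33). The groups overlapped, with 5 of 8 mice above all the others. The difference was 0.43 ± 0.09 (SE), with an adjusted p of 0.654.

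The other higher probesets had larger p. Gsk3b, the kinase that marks beta-catenin for destruction, had values of 6.68 to 7.20 (median 6.89) against 5.91 to 6.83 (median 6.55), with 5 of 8 mice above all the others, and a difference of 0.50 ± 0.12 (SE, adjusted p = 0.953). For Gsk3b, Zfp148, Dnaja2 and Cdip1, as for Egfr, at least 1 other probeset differed in the opposite direction. Nfatc3, a transcription factor switched on by calcineurin, differed by 0.44, and Camk1d, a calcium-dependent kinase, by 0.58. Arpc2, a subunit of the actin-nucleating complex, differed by 0.52, and Cdip1, a p53 target that promotes cell death, by 0.50, with -0.02 and 0.02 for its 2 other probesets. Probeset 1432647_at of Egfr, the receptor that epidermal growth factors bind, differed by 0.35, while its 5 other tested probesets differed by -0.10 to 0.08, 3 of them downward. The adjusted p of these genes ran up to 0.996.

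Genes of chromosome 19 led the other direction. Snhg1, the host gene of a group of small nucleolar RNAs, had a lowest, median and highest log2 value of 9.38, 9.57 and 9.67 in mice with a gain of 2 or more and of 9.62, 9.94 and 10.19 in the others. Mice of the first group lay in a narrow band at the bottom of the range of the second, 6 of 8 under all of it. The difference was -0.39 ± 0.08 (SE), with an adjusted p of 0.521. Tmem179b (1455874_at) differed by -0.46 with the same adjusted p, while its 2 other tested probesets differed by -0.21 and 0.02.

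Zdhhc24, a member of the palmitoyltransferase family, gave the same picture in both of its probesets. Probeset 1428278_at ran from 5.16 to 6.06 (median 5.58) in mice with a gain of 2 or more and from 5.66 to 6.63 (median 6.16) in the others. Again 6 of 8 mice lay under all of the others. The 2 probesets differed by -0.61 and -0.60, the first with an adjusted p of 0.654. Gna14, a G protein alpha subunit of the Gq family, differed by -0.65 and Ttc9c by -0.52, both with an adjusted p of 0.707.

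Nectin3, a cell adhesion molecule of adherens junctions, differed by more than any other leading gene but Pdxdc1. In mice with a gain of 2 or more its level (1448673_at) ran from 3.79 to 6.03 (median 4.81), and in the others from 5.53 to 6.65 (median 5.89). Of the 8 mice 6 lay under all of the others. The difference was -1.03 ± 0.24 (SE), with an adjusted p of 0.707, and the second Nectin3 probeset differed by -0.98. Cap1, an actin-binding protein, differed by -0.44, and Ptpn12, a tyrosine phosphatase of the cytoskeleton, by -0.39. Pla1a, a phospholipase that acts on phosphatidylserine, differed by -0.59, Carnmt1, the carnosine methyltransferase, by -0.39 and D030056L22Rik by -0.37. The adjusted p of these 5 genes lay between 0.963 and 0.996.

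**Figure D2:**
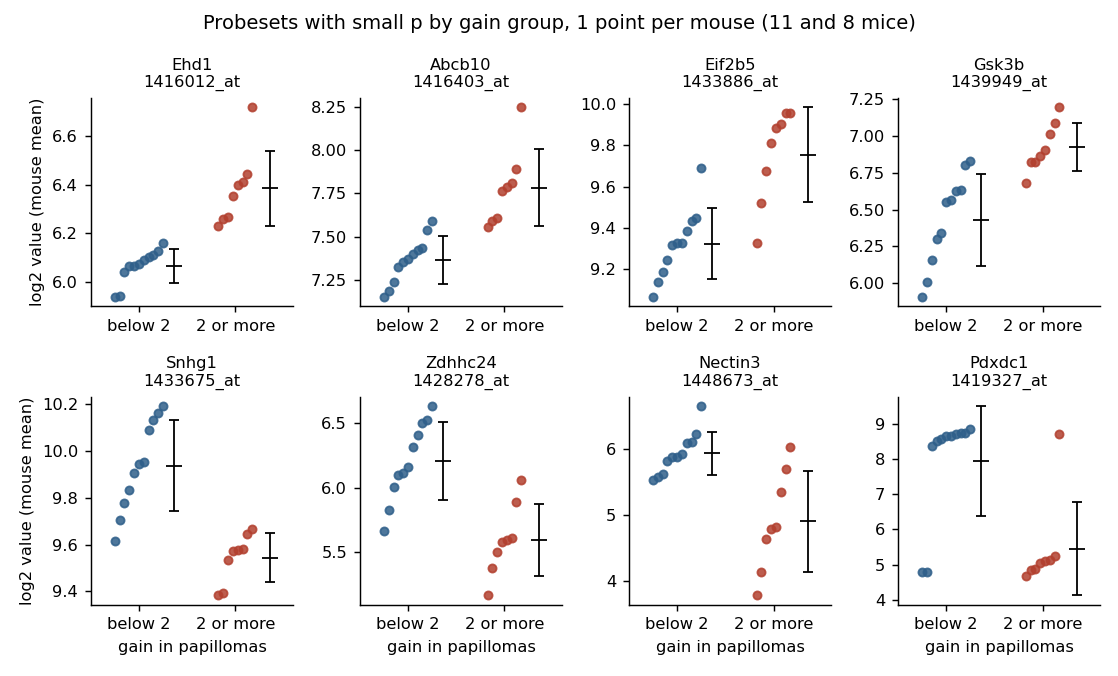
Log2 values of 8 of the 24 probesets with the smallest p, 1 point per mouse (mean of its papillomas), with the 11 mice with a gain below 2 in blue and the 8 mice with a gain of 2 or more in red; bars are the mean and SD of each group. Ehd1 (6.23 to 6.72 against 5.94 to 6.16) does not overlap, the other probesets do, and Pdxdc1 falls into a low and a high set of mice.

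Pdxdc1, which codes for a protein with a pyridoxal-dependent decarboxylase domain, was the only gene among both the higher and the lower probesets. Probeset 1419327_at had 2 levels. Over all 37 mice it lay either between 4.67 and 6.27 or between 8.38 and 8.85, and in none of the 31 mice with 2 arrays did the papillomas fall on different sides. The low level was seen in 7 of 8 mice with a gain of 2 or more and in 2 of 11 with a gain below 2. In susceptible mice it was seen in 2 of 4 and 3 of 8, and in 3 of 6 resistant mice. These counts were made after the values were seen and have no test of their own. The difference of means was -2.49 ± 0.63 (SE, adjusted p = 0.996). Probesets 1452705_at and 1428200_a_at went the other way, by 0.51 and 0.34, and the last one differed by -0.02, so no direction can be given for the gene.

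The directions of the 24 probesets were stable across the start cohorts, which is a weak statement for probesets picked on a contrast that includes those cohorts. All 24 kept their direction with the cage as a block, within cohort B (2 mice against 2) and cohort F (2 against 6), and 23 within cohort G (1 against 2), where Carnmt1 was at 0.003. Of the 46 other tested probesets of these genes, Pdxdc1 left out, 33 had the direction of the leading probeset and 13 the opposite one.

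Susceptible mice, which played no part in choosing these probesets, were compared for direction. There 14 of the 24 probesets had the same sign of difference between gain groups, 7 of the 12 higher and 7 of the 12 lower ones. Of all genes, 59.5% were higher in susceptible mice with a gain of 2 or more. The share with the same sign over all probesets was not counted, so the 14 are a description only. In limma 0 of the 24 had an unadjusted p under 0.05 in susceptible mice. Over all probesets in susceptible mice 0 passed (0%), and 354 had an unadjusted p under 0.05 in limma (1.64%). The difference between the contrasts of the 2 classes passed for 0 probesets (0%), with 600 at an unadjusted p under 0.05 (2.78%). The contrast in intermediate mice that chose the 24 probesets is part of that difference, so their count in it (13 of 24) is a description set by the choice.

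The leading probesets were not spread evenly over the chromosomes. Chromosomes 16 and 19 held 16 of the 24. At an unadjusted p under 0.01 there were 158 probesets (0.732% of those tested), of which 33 were on chromosome 16 (4.23% of its 780 tested probesets) and 30 on chromosome 19 (3.8% of 789). Chromosome 8 held 19 (1.7% of 1120), and no other chromosome exceeded 0.727%. Both directions were present, as over all tested probesets (0.324% higher and 0.408% lower), with 22 higher and 11 lower on chromosome 16 and 7 higher and 23 lower on chromosome 19.

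Within the chromosomes the probesets were grouped. When the tested probesets of a chromosome were put in gene order and cut into 3 equal parts, the first, middle and last part of chromosome 16 held 15, 18 and 0 of its 33, and those of chromosome 19 held 16, 13 and 1. On chromosome 8 the parts held 1, 5 and 13. The susceptible mice had 46 probesets at this level (0.213%), 2 on chromosome 16, 0 on chromosome 19 and 1 on chromosome 8. Their counts were uneven as well, with 9 on chromosome 13 (1.14%) and 7 on chromosome 14 (0.972%). Neighbouring genes in a backcross share inherited segments, and probesets of a segment are not independent of each other. Genotypes were not analysed here, and whether inherited segments differed between the gain groups was not tested.

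The counts by chromosome moved with the setting. With the start cohort as a block 74 probesets had an unadjusted p under 0.01, 9 on chromosome 16, 12 on chromosome 19 and 15 on chromosome 8. When mice with a gain of 1 were counted with the larger gains, 129 probesets were at this level, with 2 and 2 on chromosomes 16 and 19. With the cage as a block, where the contrast rests on the 3 cages that held a mouse of each group, 20 probesets were at this level, 0 on chromosome 16, 6 on chromosome 19 and 0 on chromosome 8. Leaving out 1 mouse at a time gave 20 to 53 on chromosome 16 and 20 to 45 on chromosome 19. The count on chromosome 16 moved by over 1.5 times without mouse 8 (20), without any of mice 2, 4, 15 and 22 (21 each), and without mouse 5 (53). Without mouse 14 the count on chromosome 8 was 40.

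**Figure D3:**
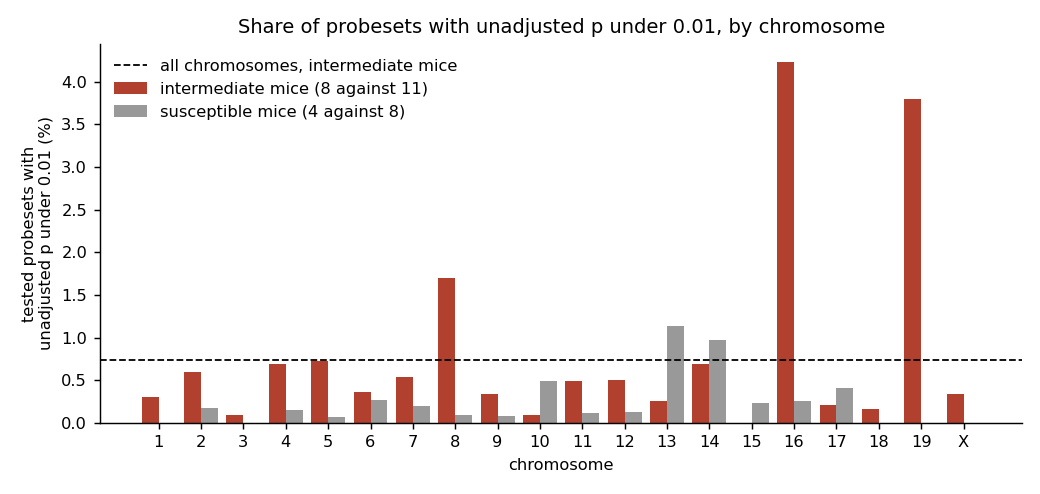
Percent of the tested probesets of each chromosome with an unadjusted p under 0.01 for gain of 2 or more against gain below 2, in intermediate mice (red) and susceptible mice (grey); the dashed line is the 0.732% of all chromosomes in intermediate mice. Chromosomes 16 (4.23%) and 19 (3.8%) stand above the line in intermediate mice and chromosome 8 (1.7%) less so, while in susceptible mice chromosomes 16 and 19 are at 0.256% and 0% and chromosomes 13 and 14 are highest (1.14% and 0.972%).

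When the size of the gain was used in place of the groups, 1 probeset of 21581 passed (0.00463%). It was 1447863_s_at of Nr4a2, an orphan nuclear receptor that is induced rapidly by growth and stress signals. Its log2 value was 0.09 ± 0.01 (SE) higher for each papilloma gained, with an adjusted p of 0.00612 in limma, and with the gain replaced by its rank the same probeset alone passed (adjusted p = 0.017). The mice with the largest gains, 11 and 11, had values of 5.87 and 5.90. Mice with gains of 5 and 7 had 5.51 and 5.72, and those with a gain of 2 or 3 had 5.01 to 5.33. In the mice with a gain of 1 values ran from 4.86 to 5.47, in those with no change they were 4.89 and 5.15, and in those with a loss they ran from 4.60 to 4.80. The values therefore followed the order of the gains, with overlap between gains of 0 to 3.

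Over the 19 mice Pearson's r was 0.884 (permutation p = 1e-05, the smallest that 100000 resamples can give) and Spearman's rho 0.836 (permutation p = 2e-05). Both p are for a probeset picked from all of them by this relation. Without the 2 mice farthest from the median gain, mice 2 and 24, r was 0.821 (permutation p = 5e-05) and rho 0.77 (permutation p = 0.00048), and the slope in limma was 0.11 with an adjusted p of 0.277. With the start cohort as a block the slope was 0.09 with an adjusted p of 0.62. These 2 settings were chosen after seeing the data, and the call was lost in both while the slope was not smaller. Mice 2 and 24 are those with a gain of 11. Mouse 2 had the highest Actb 3'/5' log2 ratio (1.43), and both arrays of mouse 24 went against its recorded sex. The slope was not fitted with RNA quality as a covariate or without the mice whose arrays went against their recorded sex.

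The gain groups differed in this probeset by 0.49 ± 0.14 (SE, adjusted p = 0.996), and by 0.48, 0.55 and 0.32 within cohorts B, F and G. The level was low, above the array median in 32 of 68 arrays. Of the 5 other tested Nr4a2 probesets, 1455034_at and 1450750_a_at had slopes of 0.10 and 0.08 (adjusted p of 0.35 and 0.216), and the other slopes were 0.03, 0.03 and 0.0001. The slope of 0.0001 was that of 1433422_at, which lay above the array median in 68 of 68 arrays. The relation therefore did not hold for all probesets of the gene. Nr4a1, a close relative, had a slope of 0.08 (adjusted p = 0.994). Probesets 1421080_at and 1438796_at of Nr4a3, another relative, had slopes of 0.005 and 0.05.

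Susceptible mice ran the other way for Nr4a2. The difference between gain groups there was -0.49 ± 0.20 (SE, n = 4 and 8), with a slope of -0.06 per papilloma (adjusted p = 0.961) and r of -0.581 over 12 mice (permutation p = 0.0511). The difference between the 2 classes in the group contrast was 0.98 ± 0.24 (SE), with an adjusted p of 0.999.

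**Figure D4:**
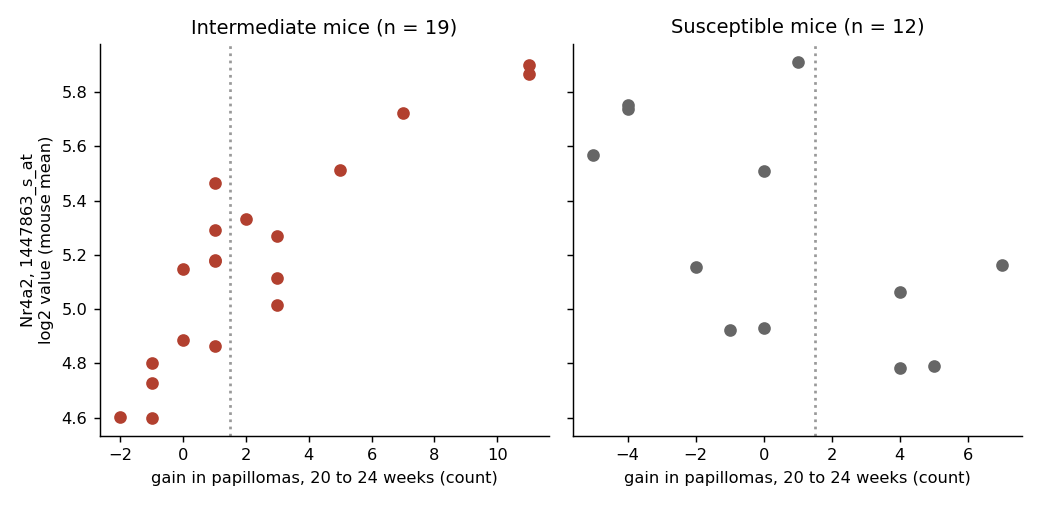
Log2 value of Nr4a2 (probeset 1447863_s_at, mean of a mouse's papillomas) against the gain in papillomas from 20 to 24 weeks, 1 point per mouse, in the 19 intermediate mice (left) and the 12 susceptible mice (right); the dotted line separates gains below 2 from gains of 2 or more. Values climb with the gain on the left (r = 0.884) and are lower in mice with larger gains on the right (r = -0.581).

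Gene lists for the cells and pathways of skin tumors were then read against all genes. With 1 probeset for each of 12605 genes, 44.8% were higher and 55.2% lower in mice with a gain of 2 or more, the median difference was -0.01, and 3.13% had an unadjusted p under 0.05. No member of any of the 58 lists passed over all probesets. The median difference was below 0 in 48 lists and above 0 in 10, so a negative median was common to most lists. In bulk tissue fewer cells of a type and less RNA per cell cannot be told apart.

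Striated muscle genes had the lowest list median. The dorsal skin of the mouse carries a thin muscle layer, the panniculus carnosus, beneath the dermis. All 20 tested genes were lower in mice with a gain of 2 or more, with a median difference of -0.64. The mean over the list had a lowest, median and highest log2 value of 4.77, 4.87 and 7.32 in these mice and of 4.76, 6.20 and 8.11 in the others. Most mice with a gain of 2 or more were at the bottom of the range, mice 5 and 14 excepted, and the groups overlapped.

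Myh1, a fast myosin heavy chain, showed the widest spread of the muscle genes. Its values ran from 3.04 to 9.61 (median 3.40) against 3.07 to 10.55 (median 6.65), a difference of -2.27 ± 0.99 (SE, exact permutation p = 0.0512). Acta1, skeletal actin, differed by -1.48 and Tnnc2, fast troponin C, by -1.32. In susceptible mice all 20 genes had the opposite sign, with a median of 0.62, where 59.5% of all genes were higher. Within cohort B the median of the list was 0.06 and within cohort F -1.30. With the mean of this list as a covariate, a setting chosen after seeing the data, 0 probesets passed in limma and 462 had an unadjusted p under 0.05, against 891 without it.

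Mast cell genes came next. All 13 tested were lower in mice with a gain of 2 or more, with a median of -0.53, which became -0.27 with the muscle mean as a covariate. The list's mean ran from 6.05 to 7.78 (median 7.22) against 6.59 to 9.11 (median 7.32), so the medians of the groups were close and the highest values were in mice with smaller gains. The mast cell proteases Mcpt2 and Mcpt1 differed by -1.06 and -0.88 (Mcpt1 by -0.52 without mouse 8). Fcer1a, the alpha chain of the IgE receptor, ran from 4.48 to 7.06 (median 6.44) against 5.67 to 8.25 (median 6.85), a difference of -0.77 ± 0.36 (SE, exact permutation p = 0.0636). Within cohort F the list's median was -0.06, and in susceptible mice -0.01.

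Macrophage and stromal genes leaned the same way. Of 19 macrophage and monocyte genes 2 were higher, with a median of -0.33, which was -0.20 without mouse 8, -0.18 without mouse 15 and -0.52 without mouse 14. Cd163, Ms4a7 and Mrc1, which mark tissue macrophages, differed by -0.84 (-0.45 without mouse 24), -0.62 and -0.59 (-0.37 without mouse 8). Of 25 fibroblast and matrix genes 1 was higher, with a median of -0.19. Without mouse 2, 15 or 25 that median was -0.10, -0.09 and -0.09, with 5, 7 and 6 higher, and without mouse 14 it was -0.34 with 0 higher. With the muscle mean as a covariate the 2 medians were -0.11 and 0.01, and within cohort F 0.03 and 0.02. With the limit set at a gain of 3 the median of the fibroblast list was 0.05.

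All 22 tested genes of invasion and matrix breakdown were lower, with a median of -0.24. Mmp13, a collagenase, ran from 8.08 to 11.08 (median 9.62) against 8.43 to 11.90 (median 10.58), a difference of -0.80 ± 0.43 (SE, exact permutation p = 0.0993). Mmp12, the macrophage elastase, differed by -0.68 (-0.45 without mouse 15), and Plau, the urokinase that activates plasminogen, by -0.60 (-0.31 without mouse 2). Plau differed by 2.50 in susceptible mice, where the list's median was 0.04. Over all 37 mice the Plau probeset 1422139_at lay either between 4.19 and 6.44 or between 7.91 and 10.10. The Plau differences therefore depend on which mice were at the low level and do not show a graded change. With the muscle mean as a covariate 7 of the list's 22 genes were higher and its median was -0.14.

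Inflammatory ligands were mostly lower as well. Of 17 genes of the IL1 family 1 was higher, with a median of -0.21 and of -0.22 in susceptible mice. Without mouse 3, whose mean over the list was the lowest of its group, the median was -0.12 with 5 higher. Il1b, the secreted cytokine of inflamed skin, ran from 9.38 to 10.39 (median 9.56) against 9.01 to 11.31 (median 10.43). The difference was -0.73 ± 0.26 (SE, adjusted p = 0.996, exact permutation p = 0.0203), and it was -1.11, -0.66 and -0.69 within cohorts B, F and G. Il1a, which keratinocytes make, differed by -0.60 and the receptor chain Il18r1 by -0.41. Of 23 chemokines 6 were higher, with a median of -0.18 (0.003 and 12 higher without mouse 15), and the eosinophil attractant Ccl11 differed by -1.17. All 11 tested genes of MHC class I presentation were lower, with a median of -0.19 (-0.12 without mouse 27), B2m by -0.31 and the immunoproteasome subunit Psmb8 by -0.38.

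Tslp, an epithelial cytokine that drives type 2 immunity, varied more between mice than between groups. It ran from 5.42 to 9.27 (median 6.31) in mice with a gain of 2 or more and from 5.18 to 11.62 (median 8.04) in the others. The difference was -0.90 ± 0.76 (SE, exact permutation p = 0.29). All 10 tested genes of the Tslp axis were lower, with a median of -0.21, which was -0.14 without mouse 22 and -0.11 with 2 higher without mouse 27. Without mouse 27 Tslp itself differed by -0.51.

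Of 11 tested genes picked from those that the study discusses, 2 were higher and 0 passed. Gzme, a granzyme of natural killer cells and cytotoxic T cells, ran from 3.67 to 6.95 (median 4.89) against 3.44 to 6.47 (median 5.24), a difference of -0.08 ± 0.49 (SE). Il18, a cytokine of keratinocytes, differed by -0.05 ± 0.27, and Map2k4, a kinase of the JNK and p38 cascades, by -0.13 ± 0.10. Spry2, an inhibitor of Ras and MAP kinase signaling, differed by -0.16 ± 0.14. The Spry2 probeset used here, 1436584_at, is not the one that the study lists as associated with susceptibility. Ccnd1, cyclin D1, ran from 10.53 to 11.27 (median 10.93) against 10.52 to 11.59 (median 11.26), a difference of -0.25 ± 0.13 (exact permutation p = 0.0769). Lgr5, the follicle stem cell receptor, differed by -0.29 ± 0.33.

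Krt25 and Krt71, keratins of the inner root sheath, differed by -0.86 ± 1.20 and -0.14 ± 0.81 (SE), with Krt25 running from 4.74 to 12.41 within the mice with a gain of 2 or more. Within cohort B the differences of the 2 keratins were 2.35 and 2.19. The lists of hair shaft keratins (5 of 12 higher) and of the inner root sheath (3 of 10 higher) had medians of -0.09 and -0.15, which changed sign when single mice were left out (-0.45 to 0.13 and -0.61 to 0.09). Of 18 regulators of the hair follicle 17 were higher, though the median was small at 0.08 and became 0.25 with the start cohort as a block. Dlx3, a homeobox gene of the hair and epidermis, and Bmp2, a ligand of the follicle, differed by 0.37 and 0.26, and Foxn1 by 0.21 (0.03 without mouse 15). In susceptible mice 6 of the 18 were higher.

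Lists of the living epidermis were of either sign. Of 18 genes of early differentiation 11 were higher (median 0.05, and -0.02 without mouse 15), of 16 basal genes 1 was higher (median -0.11, and -0.05 with 7 higher without mouse 14), of 30 mitotic genes 4 (median -0.10, and -0.06 with 9 higher without mouse 15) and of 28 replication genes 10 (median -0.04). Of 33 genes of the cornified layer 4 were higher, with a median of -0.21, and this direction rested on mouse 3. Without that mouse 29 of 33 were higher and the median was 0.17, and within cohort F, which does not hold it, the median was 0.21. The same list was higher in susceptible than in resistant mice, with a median of 1.07. Ivl, involucrin, and Klk7, a protease that frees cells from the surface, differed by -0.61 and -0.60, the latter by -0.26 without mouse 3. Of 19 epidermal serpins and kallikreins 3 were higher (median -0.15, and -0.06 without mouse 3 or mouse 14).

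Signaling and metabolic lists had medians near 0, with a few members further out. Dusp6, the phosphatase that restrains ERK, ran from 8.87 to 11.02 (median 10.47) against 10.29 to 11.59 (median 10.67), a difference of -0.63 ± 0.25 (SE, exact permutation p = 0.0265), and of 22 genes of the Ras and ERK pathway 8 were higher (median -0.08). In susceptible mice all 22 were higher (median 0.16), with Dusp6 at 0.62. Gstp1, which conjugates glutathione to electrophiles, ran from 11.88 to 13.48 (median 12.87) against 11.06 to 13.26 (median 11.82), a difference of 0.85 ± 0.27 (SE, adjusted p = 0.996, exact permutation p = 0.0112). In susceptible mice Gstp1 differed by 0.67 between 4 mice with a gain of 2 or more and 8 with a gain below 2. In that contrast 0 probesets passed. Its list of 21 xenobiotic genes had 11 higher in intermediate mice (median 0.07, and below 0 without mouse 17, 22 or 27). Lists of oxidative phosphorylation (44 genes), ribosomal proteins (23) and the proteasome (29) had medians of -0.01, -0.01 and -0.02.

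**Figure D5:**
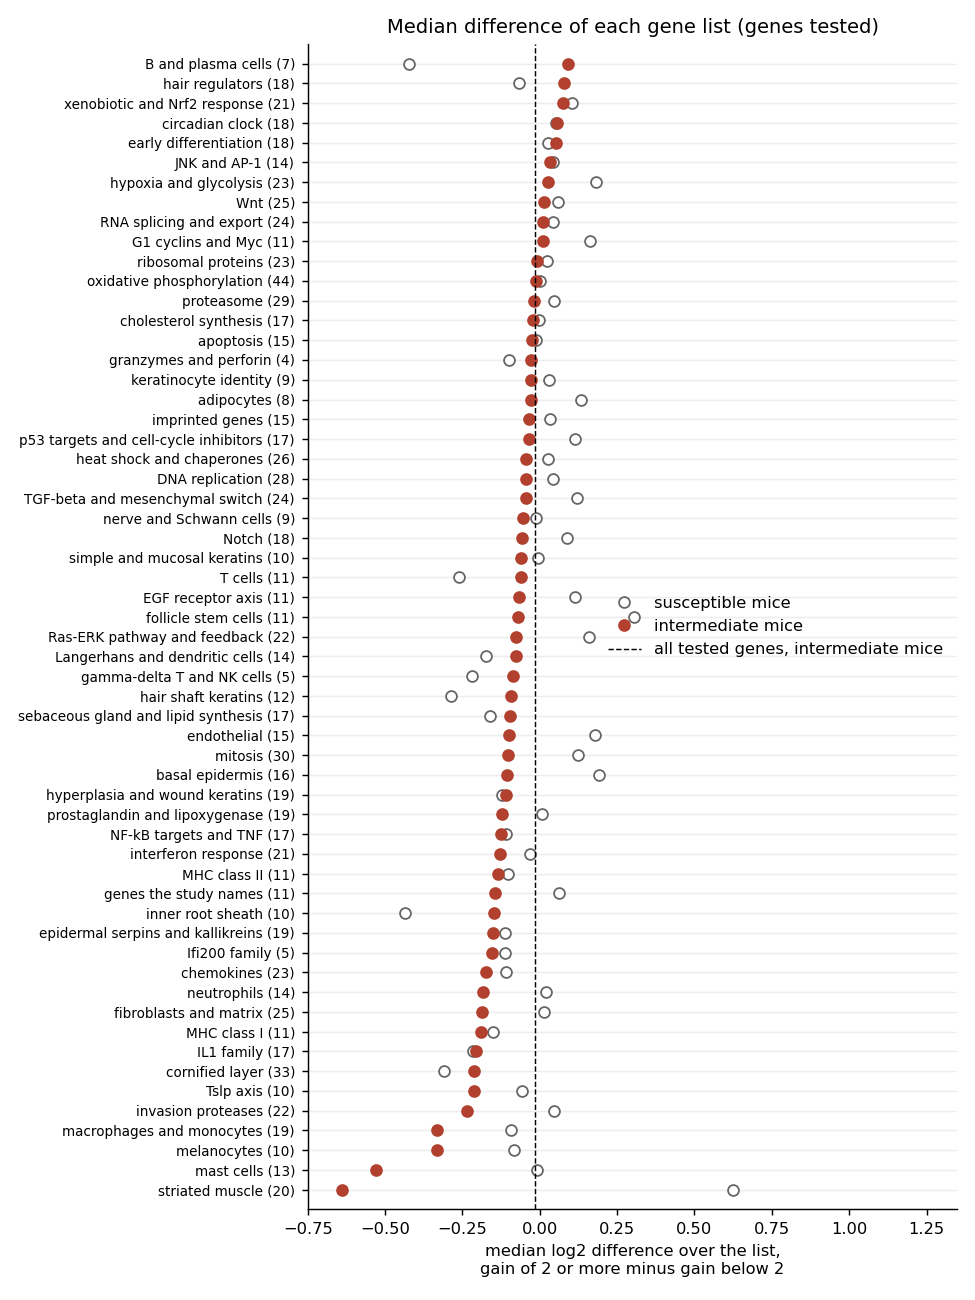
Median log2 difference over each of the 58 gene lists, gain of 2 or more minus gain below 2, in intermediate mice (red) and susceptible mice (open circles), with the number of genes tested in parentheses; the dashed line is the median of all tested genes in intermediate mice (-0.01). Striated muscle (-0.64) and mast cells (-0.53) are lowest in intermediate mice, and striated muscle is at 0.62 in susceptible mice.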

How the data were processed

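Total RNA of 68 papillomas from 37 FVBBX mice was hybridized to Affymetrix whole-genome mouse arrays. The values deposited by the authors are log2 intensities of probesets, obtained by RMA (background correction, normalization between arrays and summary of probes, already applied); its version and the genome build are not given in the sources used here. Of 45101 probesets 34945 carried 1 gene symbol, 932 several and 9160 none, and 64 were controls. Symbols came from the array annotation, updated through the gene number in the RefSeq table of GRCm38.p6 (34741 found), which also gave gene order. Values of papillomas from 1 mouse were averaged, so the mouse is the replicate.

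Probesets with 1 symbol that lay above their array's median in at least 11 of 68 arrays were tested (21581 probesets, 12605 genes). Gain groups were compared with limma 3.58.1 (lmFit, eBayes, R 4.3.3) without covariates, in the 19 intermediate mice, in the 12 susceptible mice, and as an interaction over both. P-values were adjusted by Benjamini-Hochberg over all tested probesets, with a threshold of 0.05. Differences are on the log2 scale with their standard errors. Single probesets also have a two-sided exact permutation p over all splits of 8 and 11 mice, and labels of mice an exact permutation or Fisher's exact test (scipy 1.17.1). Replicate mice are separate animals, and the number of mice limits the precision.

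For the text, 12 probesets in each direction were taken by unadjusted p, with 11 genes picked from those the study discusses and, for each list described, at most 3 of its members by size of difference. Nr4a2 was added after its values were seen. Lists use the tested probeset of highest mean for each gene and have no test. Members, lists and limits were chosen with earlier results of these data known. The script was tested on simulated data. Alternatives covered the filter, covariates, start cohort, cage, array weights, papillomas as samples, the limit of the gain, and each mouse left out. All value columns were used (0 left out), and no values were missing (0).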

Additional observations from a re-analysis of the deposited data

Results flagged for a closer look

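Within the 8 mice with a gain of 2 or more, each of 93 named probesets and list means was examined for a mouse that stood apart from the other 7 (Dixon's ratio above 0.526). For normally distributed values chance alone flags about 1 in 20 such groups, and 11 of 93 were found. The 93 come from the same mice, are not independent of each other and include the Pdxdc1 probeset with 2 levels. The 11 can therefore not be read against that rate.

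Mouse 3, which gained 7 papillomas, stood below the others in the mean of the cornified layer list (8.79, with the next mouse at 11.23), in the mean of the IL1 family list (8.20, next 8.74) and in Il18 (9.31, next 10.50). Mouse 5 stood apart in Pdxdc1, with 8.71 on probeset 1419327_at where the next mouse was at 5.25, and with 8.25 on 1452705_at where the next was at 8.79. Its mean of the striated muscle list was 7.32, with the next mouse at 5.80.

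Mouse 14 was highest in the mean of the MHC class II list (8.61, next 8.25) and of the RNA splicing and export list (11.03, next 10.90). It was lowest in the mean of the xenobiotic and Nrf2 list (8.45, next 8.92) and of the list of p53 targets and cell-cycle inhibitors (8.28, next 8.57). Mouse 2, which has the highest Actb 3'/5' ratio of the 19 mice, was highest in Ehd1 (6.72, next 6.44). The causes were not tested.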

How the results depend on the processing

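Across 45 alternatives of the comparison in intermediate mice 43 gave 0 calls, and the gain as a number and its rank gave 1 each, Nr4a2. Leaving out each mouse gave 0 to 0 calls, with a smallest adjusted p between 0.23 and 1. In susceptible mice and for the difference between the classes no alternative gave a call. The number of probesets at an unadjusted p under 0.05 did move, from 891 to between 646 and 1556 when 1 mouse was left out, the highest without mouse 14, to 660 with the start cohort as a block, and to 1422 without the 4 mice whose arrays went against the recorded sex. The fit with days to sacrifice left out mouse 15, whose day is not given. With the papillomas as samples and the mouse as a random block (consensus correlation 0.47) the smallest adjusted p was 0.0843, and without the mice that lost papillomas 0.078. The 24 leading probesets kept their direction in all fits that tested them. This is a weak statement, since they were picked on the main contrast and the fits use the same mice. No paired analysis was possible because of what the replicate labels count, papillomas of 1 mouse, but cages could serve as a block. Of 13 cages 3 held 1 mouse of each group, and this fit, chosen after seeing the data, gave 0 calls with 186 probesets at an unadjusted p under 0.05. Under it the list medians were -0.14 for striated muscle (5 of 20 higher), -0.30 for mast cells (4 of 13), -0.25 for macrophages, -0.04 for fibroblasts, -0.03 for the IL1 family, 0.02 for the Tslp axis and 0.08 for the cornified layer. Medians of the mast cell and invasion lists were below 0 in all 41 alternatives that give a group difference. The median of the striated muscle list was below 0 in 39 of them. The exceptions were cohort B alone (0.06) and the muscle list's own mean as a covariate (0.01). The latter fit holds the mean difference of that list at 0, so its value was fixed in advance. The number of mice limits the precision. The causes of these changes were not tested.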

Other observations

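Aldh1a1, a retinal dehydrogenase on chromosome 19, was chosen after its values were seen. Its log2 value (1416468_at) ran from 5.35 to 8.66 (median 7.94) in mice with a gain of 2 or more and from 4.09 to 8.58 (median 6.06) in the others. The difference was 1.48 ± 0.54 (SE, adjusted p = 0.996 in limma, exact permutation p = 0.0226), and it was 1.88, 1.67 and 1.22 within cohorts B, F and G and 0.90 in susceptible mice. Chil4, a chitinase-like protein of alternatively activated macrophages and inflamed epithelia, chosen in the same way, ran from 7.08 to 13.38 (median 10.72) against 6.88 to 14.49 (median 12.85). Its difference was -1.77 ± 0.99 (SE, exact permutation p = 0.116). Melanocyte genes were mostly lower, 8 of 10 with a median of -0.33 (-0.21 without mouse 15), and Tyrp1 and Dct, enzymes of pigment synthesis, differed by -0.91 and -0.78 where the groups had 3 of 8 and 5 of 11 agouti mice. Klk6, an epidermal protease, was named for having the largest difference in its list of 19 epidermal serpins and kallikreins. It ran from 9.96 to 12.71 (median 12.26) against 12.25 to 13.55 (median 12.69). The difference was -0.74 ± 0.27 (SE, exact permutation p = 0.00216), and -0.45 without mouse 3. This p is not adjusted for that choice, and in limma no probeset had an adjusted p below 0.521.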
